A study of Mus musculus with 11 samples.

Results

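Brain RNA of p53-deficient control embryos was compared with that of p53 wild-type control embryos on the autosomes. The members were 7 of the 11 libraries of the series, each made from the brain of 1 mouse embryo at embryonic day 9.5, and the features were the 13495 genes on chromosomes 1 to 19 among 14542 genes tested. The 4 control males were p53-/- Bim+/- and the 3 control females were p53+/+ Bim+/-. All embryos were of C57BL/6 background, and all 11 carried the Bim+/- label, which stands for 1 mutant allele of Bcl2l11, the gene for the pro-apoptotic protein Bim. The Bcl2l11 level of the control females stood apart from that of the other embryos with this label. The control females were also the only p53+/+ embryos, and their labelled Bim genotype was not tested. A further 4 libraries came from affected females, also p53-/- Bim+/-. They entered the estimate of the spread, and their values are given beside the controls. The labels do not say how these females were affected. They name no litter, batch or date, and do not give the part of Trp53 or Bcl2l11 that the mutant alleles lack. Among the 11 samples analysed here there was no p53+/+ male and no p53-/- control female. The p53 genotype and the sex of the embryo therefore differed together, and on these data the 2 cannot be told apart. Keeping to the autosomes removes genes of the sex chromosomes but not autosomal differences between the sexes.

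p53 is a transcription factor that cells hold at a low level by degrading it through the ubiquitin ligase Mdm2. Damage to DNA and other stresses stabilise it, after which it binds a paired motif near its target genes and activates genes of cell cycle arrest, cell death and repair. Some targets are transcribed in a p53-dependent way without added stress. Most mouse embryos develop without p53, but a share of them, mainly females, fail to close the cranial neural tube.

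On the autosomes 7 genes differed between the control groups. Coordinates are in GRCm38. Lower in the p53-/- control males were Ccng1, Bcl2l11, Zfp365 and the non-coding Gm4983, and higher were the long non-coding RNA AA465934, Gstm6 and Arl5a. The 7 genes were 0.0519% of the 13495 tested, with 3 higher (0.0222%) and 4 lower (0.0296%), by edgeR's quasi-likelihood test at a Benjamini-Hochberg adjusted p under 0.05. Before adjustment, 806 genes had p under 0.05, or 5.97% of those tested, with 432 higher and 374 lower. The median log2 fold change (control males over control females; also written log2 difference) was 0.00, and 96.9% of genes lay within 1.5-fold of equality. The 95% interval lay inside a 2-fold change in either direction for 12162 genes (90.1%), so larger differences were outside the interval for most genes. For a typical gene the interval, which is not adjusted for the number of genes, reached 0.29 to either side, a 1.22-fold change. The smallest difference called after adjustment was 1.52-fold.

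Both called members of the p53 target lists are shown here by their promoters, from 250 bases before to 50 bases after the start site. Each window holds a match to the p53 element, under a search rule that was chosen after values or sequences were seen. The sequences are from RefSeq on GRCm38.p6 and run 5′ to 3′ along the gene, with the match in capitals. The search asked for 2 adjoining half-sites of 10 bases with no spacer, required the fixed C and G of each half-site, and allowed up to 2 mismatches elsewhere. The element is its own reverse complement, so a match counts on both strands. The Ccng1 window lies at chr11:40755237-40755536 on the minus strand, and its match, 195 bases before the start site, has 1 mismatch. The Zfp365 window lies at chr10:67912613-67912912 on the minus strand, and its match, 63 bases before the start site, has 2 mismatches.
Ccng1: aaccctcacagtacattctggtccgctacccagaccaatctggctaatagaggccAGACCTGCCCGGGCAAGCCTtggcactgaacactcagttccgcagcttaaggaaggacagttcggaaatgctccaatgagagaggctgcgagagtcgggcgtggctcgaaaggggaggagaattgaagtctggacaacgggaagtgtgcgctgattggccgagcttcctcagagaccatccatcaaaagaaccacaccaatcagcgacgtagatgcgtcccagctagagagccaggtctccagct
Zfp365: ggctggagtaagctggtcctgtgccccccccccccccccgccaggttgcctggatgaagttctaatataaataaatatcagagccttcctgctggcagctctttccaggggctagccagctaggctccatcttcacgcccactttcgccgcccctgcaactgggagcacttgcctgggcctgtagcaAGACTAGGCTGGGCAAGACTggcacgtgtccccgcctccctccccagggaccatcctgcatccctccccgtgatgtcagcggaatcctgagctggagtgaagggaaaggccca

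Among promoters of tested autosomal genes, 5 of 13365 (0.0374%) held a match with up to 1 mismatch and 42 (0.314%) one with up to 2. Among 68 promoters of 48 tested p53 target genes the counts were 3 (4.41%) and 5 (7.35%). These lists were made of known targets, so the share describes how the lists were built. The 3 further matches, looked at after the values were seen, are shown as the element alone, entirely in capitals, to set beside those of Ccng1 and Zfp365. That of Cdkn1a lies at chr17:29090928-29090947 with 1 mismatch, that of Gtse1 at chr15:85859945-85859964 with 1, and that of Ckap2 at chr8:22186003-22186022 with 2.
Cdkn1a: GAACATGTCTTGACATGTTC
Gtse1: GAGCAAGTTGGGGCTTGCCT
Ckap2: AGACATGTCCTGACTTGTCA
The log2 fold changes of these 5 genes were -1.52 (Ccng1), -1.43 (Cdkn1a), -0.97 (Zfp365), -0.26 (Gtse1) and -0.16 (Ckap2), and only those of Ccng1 and Zfp365 passed the test. A match is a description of letters and not a measured binding site.

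The libraries held 9188848 to 11218682 counts in the control males and 8211942 to 10632842 in the control females, with 88.7% to 92.3% on autosomes. Progenitor markers of the neural tube (9 of 9 detected, among them Sox2 and Pax6) were present in every library, summing to 1229 to 1598 CPM (males) and 1170 to 1575 CPM (females), and head mesenchyme markers were present too, at 303 to 416 CPM (males) and 267 to 350 CPM (females). The 3 heart markers summed to 0.326 to 0.713 CPM in males and 0.609 to 1.63 CPM in females, with Nkx2-5 at 0 in all 7. The 4 endoderm and yolk sac markers summed to 7.84 to 11.5 CPM in males and 8.28 to 9.59 CPM in females, nearly all of it Foxa1, with Ttr at 0 in all 7. One library of the wild-type group, control female 1, differed from its 2 companions. Its primitive erythroid markers summed to 489 CPM against 4216 and 3979 CPM in control females 2 and 3 and 1935 to 3550 CPM in control males. Its heat shock gene Hspa1b was at 96.3 CPM against 0.53 and 0.834 CPM in control females 2 and 3 and at most 1.91 CPM in control males. Genes of newly born neurons had a list median of -0.27 in control female 1 against 0.42 and 0.60 in the other 2, on a log2 scale relative to the mean of all libraries. The control males also differed among themselves. Over autosomal genes, the log2 CPM of control males 2 and 4 correlated at 0.977. That of control female 1 correlated at 0.980 and 0.978 with control females 2 and 3. The part of these differences in the results was not tested, but several results are also given without control female 1. In these whole-brain samples, fewer cells of a type and less RNA per cell cannot be told apart.

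Trp53 itself (chromosome 11, 69580348 to 69591873) did not separate the genotypes in counts over the whole gene. Its level was 127, 132, 131 and 112 CPM, which are counts per library size after TMM scaling, in control males 1 to 4 and 125, 107 and 105 CPM in control females 1 to 3. The log2 fold change was 0.16 (95% interval -0.06 to 0.38; adjusted p = 0.842, edgeR). Whole-gene counts do not show which exons were transcribed, and the genotype here is taken from the labels alone.

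Ccng1 (Entrez gene 12450, chromosome 11, 40748552 to 40755309) encodes cyclin G1, a feedback partner of p53 that recruits a phosphatase to Mdm2. It was at 28.8, 33.5, 31.8 and 27.5 CPM in the control males and at 93.8, 74.7 and 92.8 CPM in the control females. The groups were far apart, with the highest male well below the lowest female. The level was 2.87-fold lower in the control males (log2 difference -1.52, SE 0.10, adjusted p = 2.85e-07, edgeR). Across the 18 alternative analyses its log2 fold change stayed between -1.62 and -1.40, and it was called in all 18. The affected females had 22.3, 24.3, 21.8 and 24.5 CPM, below every control male. Against the control males this was a log2 fold change of -0.39 (adjusted p = 0.0203, edgeR), in a comparison in which 19.6% of autosomal genes were called, and against the control females one of -1.91 (adjusted p = 9.27e-08, edgeR), in which 27.5% were called. These 2 comparisons share libraries with the one described here and are given only side by side.

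Zfp365 (Entrez gene 216049, chromosome 10, 67886105 to 67912662) encodes a zinc finger protein that helps to keep fragile chromosome sites intact. Its level was 6.58, 7.03, 6.61 and 7.09 CPM in control males, compared with 16.9, 11.02 and 12.4 CPM in control females. The males were tightly grouped and all lay under the lowest female. The difference was 1.96-fold (log2 difference -0.97, SE 0.16, adjusted p = 0.0198, edgeR). Without control female 1, which had the highest value, the log2 fold change was -0.78 and the call was lost (adjusted p = 0.0921, edgeR). It was also lost without control male 1, control male 3 or control female 3, with adjusted p up to 0.111 over all alternatives run. The p53-/- affected females did not share the low level of the control males. They had 9.57, 11.2, 13.2 and 11.8 CPM, a log2 fold change of 0.75 against the control males (adjusted p = 0.0106, edgeR) and of -0.22 against the control females (adjusted p = 0.294, edgeR).

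Bcl2l11 (Entrez gene 12125, chromosome 2, 128126038 to 128162547) encodes Bim, a BH3-only protein that neutralises the survival proteins of the BCL-2 family. Every group carries the same Bim+/- label. The level was 39.2, 47.7, 36.0 and 38.1 CPM in control males against 71.0, 82.1 and 77.04 CPM in control females. The groups did not overlap, and the control males were 1.91-fold lower (log2 difference -0.93, SE 0.11, adjusted p = 0.000217, edgeR). The gene was called in all 18 alternatives, with log2 fold changes of -1.10 to -0.88. The affected females, at 38.2, 46.9, 42.5 and 47.3 CPM, lay in the range of the control males, with a log2 fold change of 0.12 between them (adjusted p = 0.403, edgeR). The 3 control females, the only p53+/+ embryos, were thus higher than all 8 other embryos labelled Bim+/-. Whether their Bim label is right was not tested. A difference in the number of mutant Bim alleles, the p53 genotype and the sex cannot be told apart for this gene. Bcl2l11 overlaps Acoxl in the annotation, and without a stated strand setting reads of the overlap could count for either gene.

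AA465934 (Entrez gene 613254, chromosome 11, 83291699 to 83294637) is a long non-coding RNA gene whose start lies 13.7 Mb from that of Trp53. It was at 53.3, 42.0, 45.4 and 36.6 CPM in control males, compared with 6.23, 9.43 and 9.18 CPM in control females. Even the lowest male was far above the highest female. The difference was 5.30-fold (log2 difference 2.41, SE 0.20, adjusted p = 5.30e-06, edgeR) and was called in all 18 alternatives (2.25 to 2.51). The affected females, at 28.8, 35.3, 23.7 and 20.4 CPM, lay between the control groups and overlapped neither. The gene overlaps AI450353 and the small nucleolar RNA gene Snord7, so its reads may not all be its own.

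Gstm6 (Entrez gene 14867, chromosome 3, 107938847 to 107953641) is a Mu-class glutathione transferase gene, one of a cluster of close copies that detoxify reactive compounds. It rested on few counts: 37, 39, 38 and 45 in the control males and 2, 7 and 5 in the control females. In CPM these were 3.48, 4.03, 3.75 and 4.09 against 0.249, 0.742 and 0.464, with no overlap. The fitted log2 fold change was 2.93, with a 95% interval of 2.19 to 3.66 (adjusted p = 0.000270, edgeR), and it was called in all 18 alternatives (2.59 to 3.33). The affected females had 5.18, 3.18, 6.06 and 4.84 CPM, around the control males. Of its neighbours in the cluster, Gstm1, Gstm2 and Gstm4 had log2 fold changes of 0.09, 0.12 and -0.05, Gstm5 0.21 and Gstm7 -0.74, and none was called. Reads of such near-identical copies can be assigned to the wrong member, so the value of Gstm6 is uncertain to that extent.

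Gm4983 (Entrez gene 245297, chromosome 12, 17992652 to 18065627) is annotated as a non-coding transcript. Its level was 11.9, 17.8, 13.6 and 11.7 CPM in control males, compared with 30.7, 22.5 and 24.2 CPM in control females, without overlap (log2 difference -0.90, SE 0.16, adjusted p = 0.0307, edgeR). It overlaps the predicted gene LOC115488001. The affected females were also low, at 8.82 to 11.7 CPM. Arl5a (Entrez gene 75423, chromosome 2, 52397949 to 52424874) encodes a small GTPase of the Golgi apparatus. Its level was 273, 268, 280 and 286 CPM in control males against 193, 145 and 207 CPM in control females. This was the smallest of the 7 differences, at 1.52-fold (log2 difference 0.61, SE 0.11, adjusted p = 0.0337, edgeR). The affected females were at 268 to 304 CPM, in and above the range of the control males. Both calls were lost when certain single embryos were left out. Gm4983 was not called without control male 1, 3 or 4 or control female 1 or 3, and Arl5a was not called without control male 1, 3 or 4 or control female 1 or 2. Neither these genes nor Zfp365 were called when the 7 control libraries alone were fitted, without the affected females. Over all alternatives run, the adjusted p reached 0.230 for Gm4983 and 0.201 for Arl5a.

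**Figure D1:**
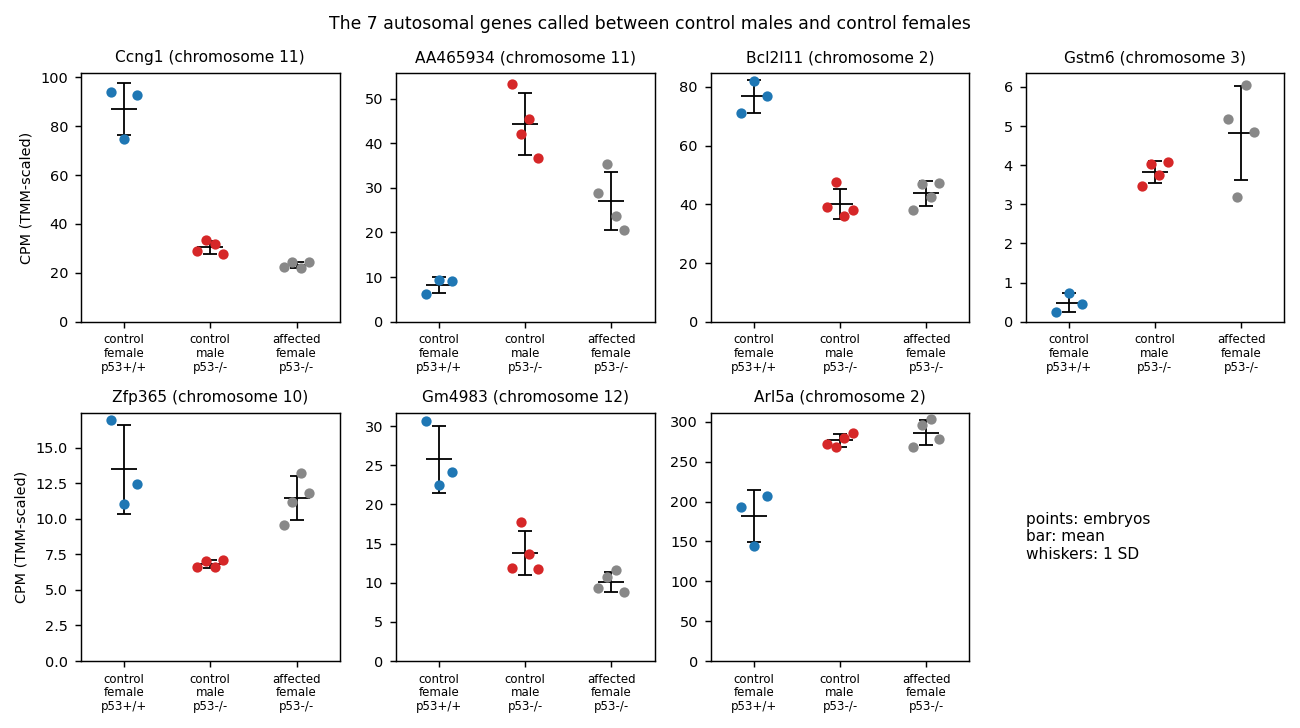
Level of the 7 called autosomal genes in every embryo, in CPM after TMM scaling on axes that start at 0; points are embryos, bars the group mean and whiskers 1 SD (3 control females, 4 control males, 4 affected females). Control males and control females do not overlap in any panel, and the affected females lie beside the control males for Bcl2l11 and Arl5a but beside the control females for Zfp365.

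**Figure D2:**
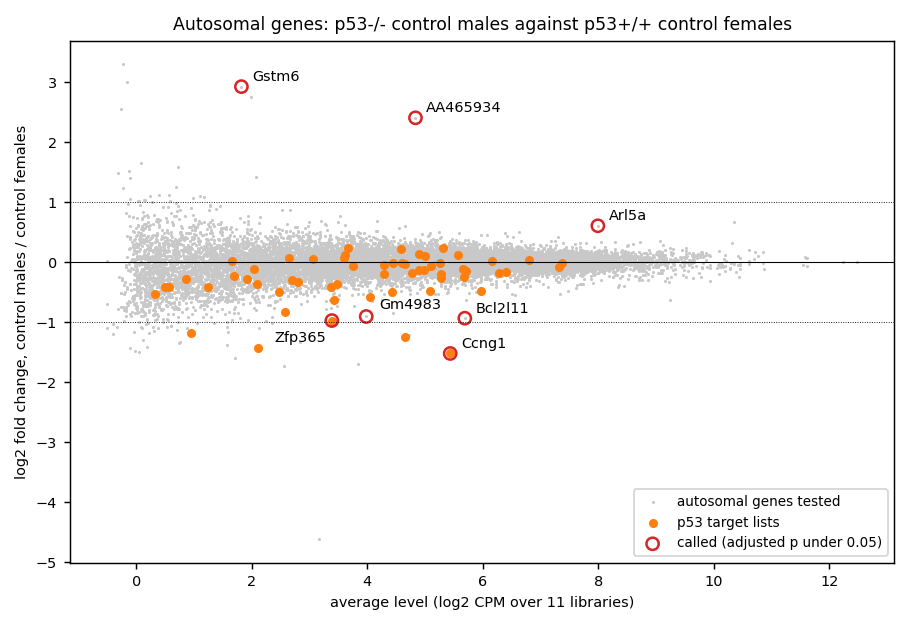
Log2 fold change of control males over control females (vertical axis) against average level in log2 CPM over the 11 libraries (horizontal axis) for the 13495 autosomal genes. Grey points are all genes, orange points members of the p53 target lists and red circles the 7 called genes; dotted lines mark a 2-fold change, which few genes pass.

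No regulator of p53 was called. Of 21 listed genes 19 passed the low-count filter (Cdkn2a and Trp73 did not), none had an unadjusted p under 0.05, and all 19 intervals lay inside a 2-fold change. Log2 fold changes ranged from -0.22 to 0.16. Mdm2, the ligase that degrades p53 and is itself a p53 target, was at 95.5, 89.0, 78.3 and 75.2 CPM in control males, compared with 96.8, 89.2 and 83.8 CPM in control females. The groups overlapped, and the log2 fold change was -0.09 (95% interval -0.30 to 0.12). Its partner Mdm4 was at -0.19 (-0.51 to 0.13). The damage kinases Atm and Atr were both at -0.10, and the checkpoint kinases Chek1 and Chek2 at 0.02 and -0.02.

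The listed target genes of p53 lay below equality more often than above it, though few passed the test. The lists were chosen with earlier results of these data known, so the shares below describe the lists and are not an independent test. Of 65 listed autosomal targets 58 were tested. Trp53cor1, Gdf15, Fas, Ephx1, Cd80, Lif and D630023F18Rik, 7 in all, were too low to test. Of the 58, 45 (77.6%) had a log2 fold change below 0, against 49.8% of all tested autosomal genes, and their median was -0.18 against 0.00. Such a share was also seen in lists unrelated to p53 targets, with 19 of 21 cholesterol synthesis genes (median -0.12), 24 of 32 Polycomb and DNA methylation genes (median -0.04) and 54 of 73 ribosomal protein genes (median -0.11) below 0. Among the targets an unadjusted p under 0.05 was reached by 15 (25.9%), 14 of them lower, against 5.97% of all genes. In those 3 other lists it was reached by 0 of 21, 2 of 32 and 1 of 73. In the neural progenitor list it was reached by 6 of 24 (25.0%), all higher. In 7 targets every control male lay under every control female, and in none every male lay above, where 2.36% and 3.05% of all autosomal genes did so. Called after adjustment were 2, Ccng1 and Zfp365. Without control female 1 the counts were 44 of 58 below 0, 11 lower at unadjusted p under 0.05, and 1 called, with a median of -0.11. DESeq2 called 3 of the 58 and limma voom with sample weights 14, all lower, against 0.111% and 5.79% of all autosomal genes called lower. Over the 18 alternatives, 40 to 47 of the 58 stayed below 0.

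Growth arrest targets numbered 15 tested, with Ccng1 called lower and a median of -0.25. The cell cycle inhibitor gene Cdkn1a, whose product p21 is the classical mediator of p53-dependent arrest, was at 2.63, 3.41, 2.66 and 3.64 CPM in control males, compared with 15.3, 4.35 and 5.75 CPM in control females. No male reached a female value, but the spread among females was wide, with control female 1 far above the other 2. The log2 fold change was -1.43 (SE 0.34, adjusted p = 0.257, edgeR), and it was -0.71 (adjusted p = 0.570, edgeR) without control female 1. DESeq2 called it (adjusted p = 0.0343). The affected females had 1.64 to 2.52 CPM. Phlda3, a repressor of Akt signalling, was at 0.940, 1.03, 1.68 and 1.91 CPM against 2.74, 2.86 and 3.89 CPM, with a log2 fold change of -1.19 (adjusted p = 0.343, edgeR). That value did not rest on control female 1, since it was -1.27 without it. Sesn2, a sestrin that restrains growth signalling under stress, was at 7.99 to 10.4 CPM against 17.3, 11.7 and 11.9 CPM (log2 difference -0.64, adjusted p = 0.342, edgeR; -0.43 without control female 1). Both genes were without overlap between the groups, and neither passed the test. Gadd45a and Btg2, further arrest genes, were at 0.24 (95% interval -0.09 to 0.57) and -0.18 (-0.64 to 0.28). Without control female 1 Btg2 was at -0.44.

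Of the cell death targets 16 were tested and none was called by edgeR, 3 having an unadjusted p under 0.05, with a median of -0.12. The BH3-only gene Pmaip1 (Noxa) had the lowest value, -0.82, at 2.26, 4.55, 3.65 and 5.27 CPM in control males, compared with 12.2, 4.35 and 4.73 CPM in control females. That rested on control female 1: without it the log2 fold change was -0.21. Zmat3, an RNA-binding target of p53, was at 45.4, 45.1, 54.4 and 64.7 CPM against 95.2, 63.5 and 61.1 CPM. The groups overlapped, and the log2 fold change of -0.48 became -0.25 without control female 1. Trp53inp1, a stress protein, was at -0.49 (SE 0.18, adjusted p = 0.773, edgeR). The pore former Bax was at -0.12 (95% interval -0.38 to 0.13), so a 2-fold difference lay outside its interval, whereas Bbc3 (Puma), near 1 CPM, was at -0.41 with a wide interval (-1.14 to 0.32).

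Targets of repair, metabolism and other functions numbered 27 tested, with 1 called lower (Zfp365) and a median of -0.15. The thiamine transporter gene Slc19a2 was at 16.5, 17.4, 14.6 and 15.2 CPM in control males, compared with 22.7, 21.3 and 27.3 CPM in control females. The groups did not overlap, and the log2 fold change was -0.58 (SE 0.14, adjusted p = 0.296, edgeR), or -0.61 without control female 1. Ddit4, a stress-induced inhibitor of mTOR signalling, was at 76.6 CPM in control female 1 against 16.4 and 21.9 CPM in the other females and 13.0 to 17.4 CPM in males. Its log2 fold change of -1.24 became -0.27 without that library. The translesion polymerase gene Polk was at -0.50 (adjusted p = 0.773, edgeR), or -0.26 without control female 1. The nucleotide excision repair genes Xpc and Ddb2 were at 0.10 (95% interval -0.10 to 0.31) and -0.30 (-0.74 to 0.14).

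**Figure D3:**
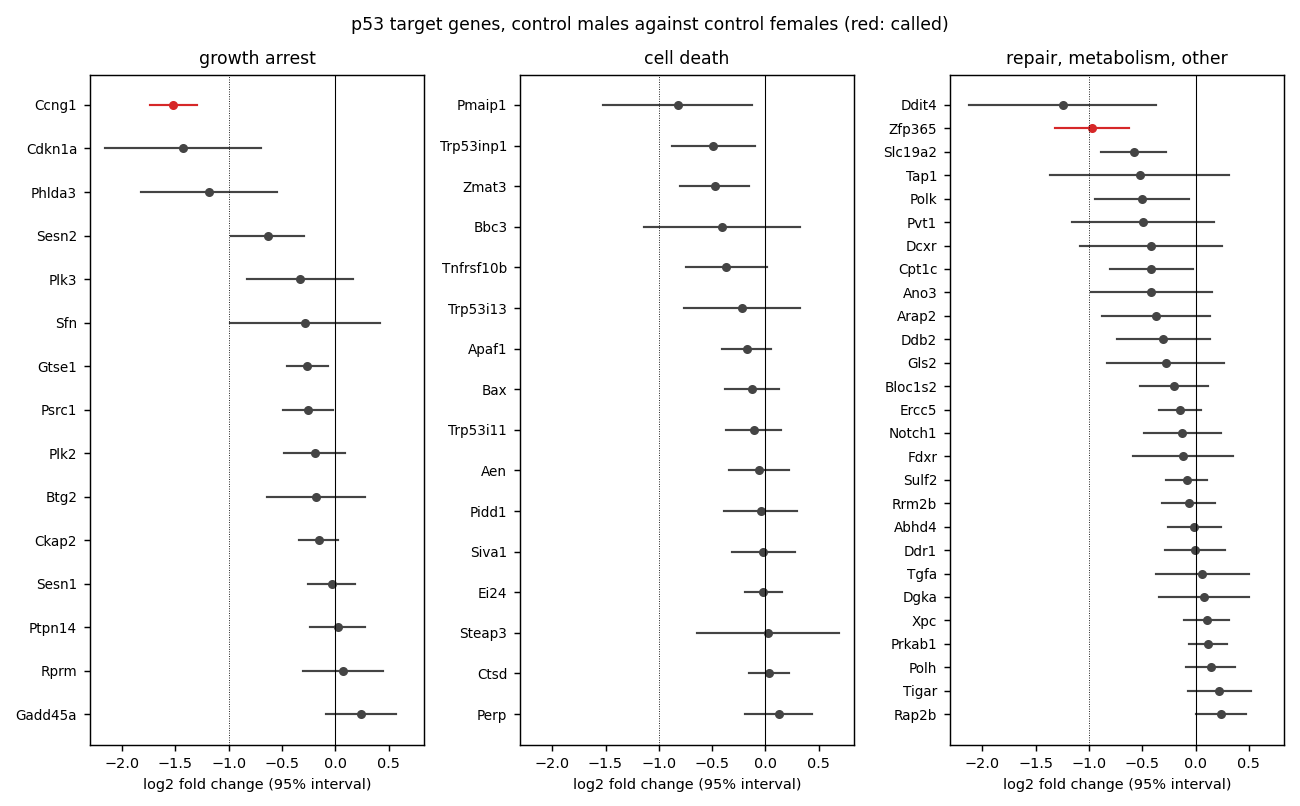
Log2 fold change of control males over control females with its 95% interval for the 58 tested p53 targets, in 3 groups by function; red marks the called genes Ccng1 and Zfp365, and the dotted line a 2-fold lower level. Most points lie left of 0, but most intervals cross it.

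Cell death machinery was also followed beyond p53 targets. Of 16 tested BCL-2 family genes Bcl2l11 alone was called. The BH3-only gene Bid was at 17.4, 11.1, 14.6 and 17.4 CPM in control males, compared with 11.7, 9.33 and 11.3 CPM in control females, with overlapping ranges (log2 difference 0.49, adjusted p = 0.717, edgeR). Survival genes lay close to equality, with Bcl2 at 0.04 (95% interval -0.26 to 0.33), Bcl2l1 at 0.10 (-0.14 to 0.35) and Mcl1 at 0.14 (-0.08 to 0.36). None of 17 caspase and apoptosome genes was called, and all 17 intervals lay inside a 2-fold change. The scaffold gene Apaf1 was at -0.18 (-0.41 to 0.06).

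No proliferation or DNA repair gene was called. None of 29 replication genes, 25 mitosis genes and 26 DNA damage genes passed the test, and the interval of every one lay inside a 2-fold change. List medians were 0.09, -0.03 and 0.04. Among mitosis genes 5 had an unadjusted p under 0.05, all lower: Cdc25b, Cdc25c, Cenpe, Kif23 and Mki67, with log2 fold changes between -0.25 and -0.19. The nuclear proliferation marker Mki67 averaged 795 CPM in control males, compared with 948 CPM in control females.

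Neural identity genes were likewise without a call. All 24 progenitor genes had intervals inside a 2-fold change, and 6 had an unadjusted p under 0.05, all higher in control males: Sox2, Sox21, Hes1, Id1, Id3 and Sall4. Of all 13495 autosomal genes, 432 had such a p and were higher. The direction depended on the fit: limma voom with sample weights called 3 of the 24 higher and 3 lower. Sox2, which keeps neural cells in the progenitor state, was at 133, 156, 150 and 169 CPM in control males, compared with 99.3, 116 and 142 CPM in control females (log2 difference 0.35, adjusted p = 0.698, edgeR). The ranges overlapped in 1 male and 1 female. Id1, an inhibitor of neuronal differentiation factors, was at 25.0 to 31.4 CPM against 19.1 to 23.3 CPM, without overlap (0.41, adjusted p = 0.704, edgeR). None of 31 early neuron genes had an unadjusted p under 0.05 in edgeR, and their log2 fold changes ranged from -0.44 to 0.47. With limma voom and sample weights, 13 of the 31 were called lower in control males, where that fit called 5.79% of all autosomal genes lower. The list medians were 0.14, 0.72, 0.06 and 0.10 in control males and -0.27, 0.42 and 0.60 in control females, with overlapping ranges. That fit gave its lowest sample weights to control female 1 (0.297) and control male 2 (0.321).

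Regional genes gave no call in the forebrain and midbrain (26 tested), ventral (19), dorsal (23) and hindbrain (14) lists, nor among 46 neural tube closure genes, of which 45 had intervals inside a 2-fold change. Of these lists the hindbrain one was the most spread, from -1.18 to 0.87. Its low end was Hoxd3, at 1.65 to 3.86 CPM in control males, compared with 5.61, 10.7 and 3.89 CPM in control females, a difference of less than 0.1 CPM between the nearest embryos. Its high end was Egr2, a factor of the developing hindbrain segments, at 3.48, 2.38, 6.61 and 5.91 CPM against 2.37, 3.39 and 1.85 CPM. Neither passed the test (adjusted p = 0.773 for both, edgeR). Lists of neighbouring tissues had no call either: neural crest (15 tested, median 0.16), surface ectoderm and placodes (22, 0.07), head mesenchyme (17, 0.04) and endothelium (18, -0.05).

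Stress and metabolic genes gave no call, and several of them stood high in control female 1 alone. Trib3, a target of the integrated stress response, was at 0.636 to 1.34 CPM in control males, compared with 2.74, 2.97 and 2.22 CPM in control females. This was the lowest of 22 genes in its list (log2 difference -1.33, adjusted p = 0.177, edgeR), it was shared by all 3 females, and it was not called. Trib3 rested on low counts. The hypoxia-induced gene Ndrg1 was at 27.4 CPM in control female 1, against 3.39 and 3.34 CPM in the other females and 3.41 to 5.54 CPM in males. Without that library its log2 fold change went from -1.34 to 0.38, and that of Hspa1b from -4.61 to 0.90. None of the genes of glycolysis and hypoxia (31 tested), cholesterol synthesis (21), interferon response (10), cytosolic ribosomal proteins (73) and the nuclear-encoded respiratory chain (51) was called, and all 51 intervals of the last list lay inside a 2-fold change. Mitochondrial transcripts made up 2.06% to 3.82% of counts in control males and 2.48%, 4.59% and 4.99% in control females. Among 29 imprinted genes the non-coding Kcnq1ot1 had the lowest value, -1.21, at 82.7, 30.6 and 32.1 CPM in control females and 12.4 to 28.0 CPM in control males. Without control female 1 it was -0.60. Polycomb and DNA methylation genes (32 tested) all had intervals inside a 2-fold change. In the 30 lists without a call, which together held 697 entries (some genes stand in several lists), 36 had an unadjusted p under 0.05, 13 higher and 23 lower. DESeq2 called none of these entries, and limma voom with sample weights called 82 (11.8%), near its 10.7% of all autosomal genes.

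**Figure D4:**
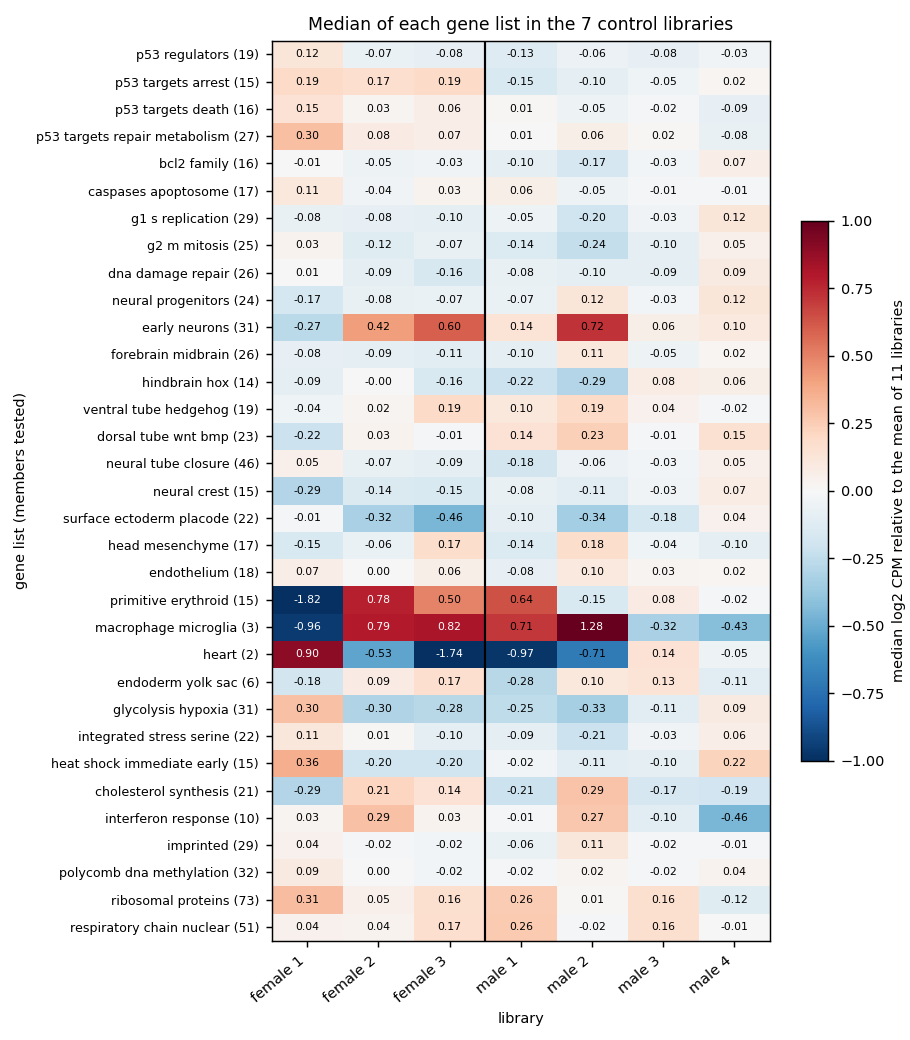
Median level of each gene list in the 7 control libraries, in log2 CPM relative to the mean of all 11 libraries; rows are lists with the number of members tested, columns libraries. Red is above and blue below the mean, with the color scale ending at 1. Growth arrest targets were at 0.17 to 0.19 in the females and -0.15 to 0.02 in the males, while erythroid genes ran from -1.82 in control female 1 to 0.78 in control female 2.

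Positions along the autosomes were also examined, with a window around each of the 2 targeted genes. Chromosome medians of the log2 fold change lay between -0.03 and 0.02. The share of genes with an unadjusted p under 0.05 ran from 4.37% to 7.88%. Within 10 Mb of Trp53, 24 of 280 tested genes (8.57%) had such a p, none was called, and 17 (6.07%) had ranges that did not overlap, against 5.41% of all autosomal genes. The gene there with the smallest p was the chromatin remodeller Chd3, at 128 against 164 CPM (log2 difference -0.36, adjusted p = 0.502, edgeR). Within 10 Mb of Bcl2l11, 18 of 195 (9.23%) had an unadjusted p under 0.05, 18 (9.23%) had ranges that did not overlap, and Bcl2l11 itself was the 1 gene called. The next smallest p there was that of Prnp, the prion protein gene, at 9.41 against 13.6 CPM (-0.54, adjusted p = 0.444, edgeR). Farther along chromosome 11, 13.4 Mb from Trp53 and close to AA465934, the Schlafen gene Slfn9 missed the threshold. It was at 6.30, 7.03, 7.20 and 8.63 CPM in control males, compared with 12.1, 16.4 and 14.7 CPM in control females, without overlap (log2 difference -0.98, SE 0.19, adjusted p = 0.0652, edgeR). Its neighbours Slfn10-ps and Slfn5 went the other way, at 3.00 (adjusted p = 0.180, edgeR) and 1.01 (adjusted p = 0.820, edgeR). Both averaged under 1 CPM in either control group.

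With a threshold of 0.1 on the adjusted p, 12 autosomal genes would have been called in place of 7. Of those added, Rec8, a meiotic cohesin subunit, was at 4.61, 8.99, 3.35 and 2.36 CPM in control males, compared with 0.00, 1.17 and 0.83 CPM in control females (adjusted p = 0.0882, edgeR). The affected females had 4.29 to 6.06 CPM. Col5a2, a fibrillar collagen gene, was at 39.2 to 53.2 CPM in control males, compared with 68.9 to 77.5 CPM in control females, without overlap (log2 difference -0.63, adjusted p = 0.0806, edgeR). Its affected-female values, 37.0 to 53.3 CPM, spanned the range of the control males.

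The number of calls changed with the test, while 4 of the 7 genes were called under every one run. There were 4 calls without control male 1 or without control male 3 and 19 without control male 2. Ccng1, AA465934, Bcl2l11 and Gstm6 were called in all 18 alternatives, Arl5a in 12, Zfp365 in 11 and Gm4983 in 10. DESeq2 called 23 autosomal genes (0.17%) and limma voom with sample weights 1441, 29.8% of genes having an unadjusted p under 0.05 in the latter. Its sample weights were 0.297 for control female 1, 0.321 for control male 2 and 0.427 for control male 4, and 4.51 for control male 3.

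**Figure D5:**
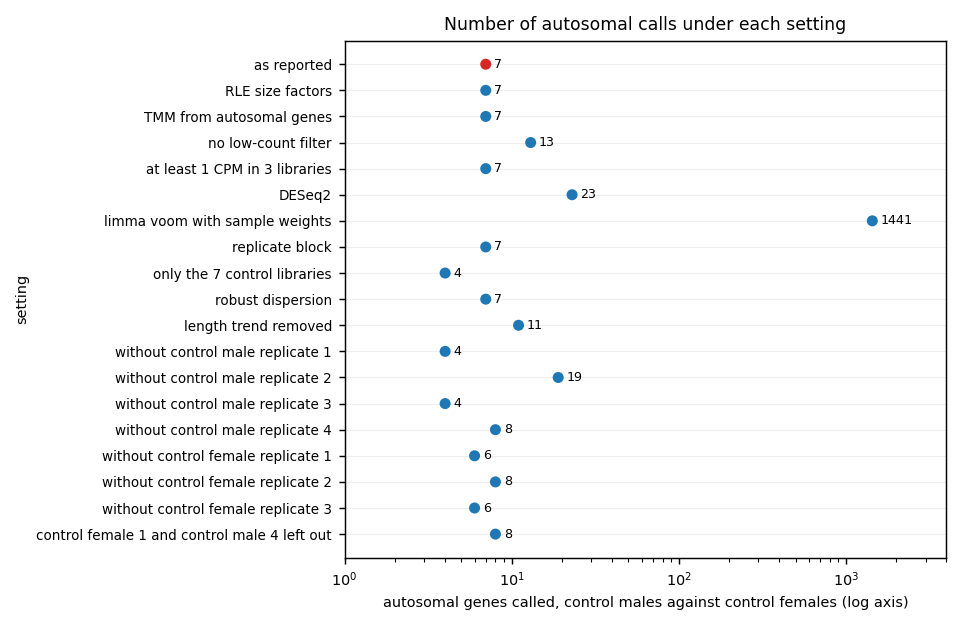
Number of autosomal genes called between control males and control females (horizontal log axis) under the reported analysis (red) and 18 alternatives (blue). All but 1 alternative gave 4 to 23 calls, and limma voom with sample weights gave 1441.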

How the data were processed

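The authors deposited raw counts per Entrez gene for each library, made with featureCounts on mm10 per the submitters' processing notes. Not given in the sources used here are the aligner, the strand setting and the annotation release. Gene length was deposited beside the counts. Of 27179 genes, 25293 had a symbol, from RefSeq (GRCm38.p6) or, for 18, GENCODE vM21; genes off chromosomes 1 to 19 are not reported. The groups come from the titles.

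All 11 libraries entered 1 fit in edgeR 4.0.16 (R 4.3.3): filterByExpr, TMM, quasi-likelihood test on group, and Benjamini-Hochberg adjustment over 14542 genes (threshold 0.05). The SE is the log2 fold change divided by the square root of F. Marker sums are CPM of total counts. The biological coefficient of variation was 11.9%. Within the control groups, library pairs differed by more than sampling noise (chi-square per degree of freedom 2.73 to 31.6), so no pair was the same library sequenced again. The check cannot tell separate preparations of the same embryo apart, and the affected females were not checked. The procedure was also tested on simulated data. It recovered 30 of 50 changes of 1.5-fold, 93 of 100 of 2-fold and 50 of 50 of 4-fold. No change was put into genes of low level, so recovery there was not tested. Alternatives included limma 3.58.1 and DESeq2 1.42.0. Each embryo is 1 replicate, and the p-values set the group difference against the spread between embryos, estimated over all 11 libraries. The labels name no litter, so embryos of a group may not be independent.

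The members, the 33 gene lists and the tests were chosen with earlier results of these data known. Named genes were Trp53, Bcl2l11, the 12 largest rises and falls and 8 smallest adjusted p among called genes, called p53 list members, up to 3 members of every other list and 5 genes near Trp53 and Bcl2l11 by adjusted p. Promoters followed the called p53 list members. Other genes (uncalled p53 list members, survival and executioner genes, Gstm relatives, Slfn9 and its neighbours, Rec8, Col5a2) and the rule of the motif search were chosen after values or sequences were seen.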

Additional observations from a re-analysis of the deposited data

Results flagged for a closer look

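Across the genes given with values above, 72 groups of 4 embryos were examined for 1 embryo set apart from the other 3, and 3 were, where chance gives about 1 in 20 groups. Sesn2 was highest in control male 4, at 10.4 CPM against 7.99 to 8.37 CPM in the other control males. Bbc3 was lowest in control male 4, at 0.818 CPM against 1.18 to 1.24 CPM. Bid was highest in affected female 1, at 19.7 CPM against 15.1 to 15.7 CPM in the other affected females. The 3 control females were too few for this check.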

How the results depend on the processing

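The 7 autosomal calls became 13 with no low-count filter, 23 with DESeq2, 1441 with limma voom and sample weights, 4 with only the control libraries and 11 with the length trend removed. Leaving out 1 library gave 4 to 19 calls: 4 without control male 1 or control male 3, and 19 without control male 2. The counts were 7 with RLE factors, autosomal TMM factors, a filter of 1 CPM in 3 libraries or robust dispersion, and 8 without control female 1 and control male 4. The cause of these shifts was not tested. Of 102 named genes, none reversed its direction while called. The replicate block gave 7 calls, with Zfp365 and Gm4983 lost and Slfn9 and Rec8 gained. The replicate numbers did not pair embryos (correlations of -0.03, 0.18 and -0.11 between same-numbered control males and females). Low counts limit Gstm6, Bbc3, Phlda3, Rec8, Trib3, Slfn10-ps and Slfn5.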
